A study of Mus musculus with 14 samples.

Results

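The matrix metalloproteases, ADAM and ADAMTS metalloproteases and their tissue inhibitors were followed in whole lungs of CD151KO mice, CD9KO mice and wild type mice. The family was taken as 35 genes, chosen by symbol. Of these, 32 were represented by at least 1 probe set that the array annotation gives exactly 1 gene symbol, 68 probe sets in all, among 18193 genes on the array. The other 3, Mmp15, Mmp28 and Adamts2, were not analysed here. After a filter on low signal 25 of the 32 genes were tested among 12985 genes, and the 7 under the filter are described by their signal.

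The lungs came from mice of the C57BL/6 background, 20 weeks old, in 3 groups. CD151KO mice, which lack the tetraspanin CD151, gave 5 samples. CD9KO mice, which lack the tetraspanin CD9, gave 5 samples. Wild type mice gave 4 samples, numbered 1, 3, 4 and 5. Each sample was 1 Affymetrix array of total RNA, and how the knockout alleles were made, or whether the mice were littermates, is not stated in the labels. The study's title concerns CD151, the lung epithelium and fibrosis, and the comparisons here set each knockout against wild type and CD151KO against CD9KO. The labels do not state that each array is a different animal, and the spread behind each p-value is therefore one between arrays that may in part be technical.

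Tetraspanins are small membrane proteins that gather other membrane proteins into clusters, and metalloproteases are among their partners. In human endothelial cells CD151 associates with the membrane metalloprotease MMP14, CD9 associates with the sheddase ADAM17 in human cell lines, and tetraspanins of the TspanC8 group carry ADAM10 to the cell surface. Matrix metalloproteases (MMPs) cut collagens and other matrix proteins, ADAMs release the outer parts of membrane proteins, ADAMTS enzymes cut proteoglycans and procollagens, and TIMPs block the active sites of these enzymes. The arrays measure transcripts, not protein or protease activity.

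The arrays gave a linear signal per probe set, with array medians from 84.1 to 86.2, and precision is limited by how many arrays each group has. Cd151 had a signal of 1027 to 1072 in CD151KO, 4867 to 5215 in CD9KO and 4991 to 5832 in wild type. Cd9 had a signal of 614 to 749 in CD9KO, 7861 to 8501 in CD151KO and 7998 to 8163 in wild type, so each knockout had a low level of the gene its label names. All 7 markers of lung epithelium, among them Sftpc and Scgb1a1, lay above the filter. CD151KO number 1 and wild type number 1 stood apart on the first principal component of all genes tested, at -17.2 and -18.5, against -8.01 to 13.4 for the other arrays, and results that changed without them are given both ways. Differences and folds are on the log2(signal + 16) scale, from limma. P-values were adjusted by the Benjamini-Hochberg method for all 12985 genes, and "passed", "rose" and "fell" stand for an adjusted p under 0.05.

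Adam17 and Timp3, a sheddase and its inhibitor, moved in opposite directions between lungs without CD151 and lungs without CD9. Adam17 codes for the enzyme that releases tumour necrosis factor and several ligands of the epidermal growth factor receptor, and Timp3 codes for a matrix-bound inhibitor that blocks ADAM17 as well as MMPs and ADAMTS enzymes. Adam17 was higher in CD151KO than in CD9KO lungs and Timp3 was lower. In bulk tissue, fewer cells of a type and less RNA per cell cannot be told apart.

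The promoters of both genes, and that of Mmp14, are shown because these genes differed between the knockouts and have a start site in the RefSeq table. Each line holds the 250 bases before the gene's start, 5′ to 3′ on the gene's strand, with the GC box (GGGCGG, or CCGCCC on the other strand) in capitals. The windows are chr12:21373633-21373882 on the minus strand, chr10:86300162-86300411 on the plus strand and chr14:54431348-54431597 on the plus strand of GRCm38.p6.
Adam17: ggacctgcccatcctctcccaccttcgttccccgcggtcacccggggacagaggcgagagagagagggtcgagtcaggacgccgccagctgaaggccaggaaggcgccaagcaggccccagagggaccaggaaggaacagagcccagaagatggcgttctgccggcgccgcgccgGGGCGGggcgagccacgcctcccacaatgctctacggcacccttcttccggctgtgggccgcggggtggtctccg
Timp3: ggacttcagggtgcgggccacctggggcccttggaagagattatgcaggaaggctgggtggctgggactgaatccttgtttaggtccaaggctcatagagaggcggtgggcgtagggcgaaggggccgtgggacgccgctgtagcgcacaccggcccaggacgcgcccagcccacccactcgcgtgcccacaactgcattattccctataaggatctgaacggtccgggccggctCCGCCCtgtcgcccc
Mmp14: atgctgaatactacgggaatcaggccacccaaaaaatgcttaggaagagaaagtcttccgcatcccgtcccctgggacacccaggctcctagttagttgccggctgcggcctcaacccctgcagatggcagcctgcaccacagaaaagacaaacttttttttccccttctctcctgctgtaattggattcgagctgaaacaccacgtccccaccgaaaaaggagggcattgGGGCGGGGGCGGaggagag
The table held 25 such windows for 22 of the 35 genes, also for Mmp15, Mmp28 and Adamts2, which were not analysed. Of the 25, 14 (56%) held a GC box, theirs included, against 32.7% of all 32851 windows. G and C made up 70.4% of the Adam17 window, 65.6% of that of Timp3 and 55.2% of that of Mmp14, against a median of 52.4% over all windows. The part of G and C content in the share with a GC box was not tested. The AP-1 motif TGANTCA, searched on both strands, lay in 4 of the 25, those of Mmp3, Mmp13, 1 of the pair of Mmp12 windows and 1 of the 3 Adam19 windows, against 6.75% of all windows. On either strand TATAAA lay in 3 (Mmp3, Mmp13 and Adamts1), against 12.4%, and the E-box CACGTG in 2 (Adam10 and Adam19), against 6.02%. The GC boxes and the other motifs do not overlap in the windows printed, since none of the other motifs is found there. A match is a description of letters and not of a bound site.

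Adam17 had signals of 675, 688, 685, 666 and 696 on the CD151KO arrays, 597, 595, 600.0, 603 and 576 on the CD9KO arrays and 621, 599.7, 621 and 594 on the wild type arrays. Every CD151KO array lay above every CD9KO array and above every wild type array, while CD9KO and wild type overlapped. Against CD9KO it rose 1.14-fold (log2 0.19, SE 0.030, adjusted p = 0.0020, above the CD9KO mean on 5 of 5 arrays). The adjusted p lay at 0.0012 to 0.0075 over 26 alternative fits of 1 value a gene, and the call ended under a 1.5-fold minimum. Against wild type it rose 1.12-fold (log2 0.16, SE 0.031, adjusted p = 0.030, above the wild type mean on 5 of 5). In CD9KO the log2 difference from wild type was -0.034 (adjusted p = 0.512). Against wild type its adjusted p was from 0.050 to 0.103 without 1 array, whether CD151KO number 1, 2, 3, 4 or 5 or wild type number 3, 4 or 5. There it was 0.054 without both number 1 arrays, 0.229 with the mean of its probe sets and 0.103 with only these groups in the fit.

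Timp3 had signals of 6365, 7476, 7484, 8196 and 8206 on the CD151KO arrays, 10463, 9756, 9268, 11068 and 10016 on the CD9KO arrays and 8014, 8436, 9240.1 and 9585 on the wild type arrays. All 5 CD151KO arrays lay below all 5 CD9KO arrays, and wild type lay between them, overlapping both. Within CD151KO and within wild type the signal rose with the sample number, as did the position on the first principal component. The CD9KO arrays showed no such order in Timp3 and lay at 7.23 to 13.4 on that component, above all other arrays. The part of this order in the Timp3 difference was not tested. The fall in CD151KO against CD9KO was 1.34-fold (log2 -0.43, SE 0.069, adjusted p = 0.0028, below the CD9KO mean on 5 of 5), with an adjusted p of 8.1e-04 to 0.0095 over the 26 fits, and the call ended under a 1.5-fold minimum. Neither knockout passed against wild type in the main fit, and CD9KO did in 1 alternative, with the replicate number as a block. In the main fit the log2 difference was -0.23 in CD151KO (adjusted p = 0.226) and 0.20 in CD9KO (adjusted p = 0.109). All 5 of 5 arrays of CD151KO lay below and 5 of 5 of CD9KO above the wild type mean. Both comparisons against wild type share the same 4 wild type arrays.

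**Figure D1:**
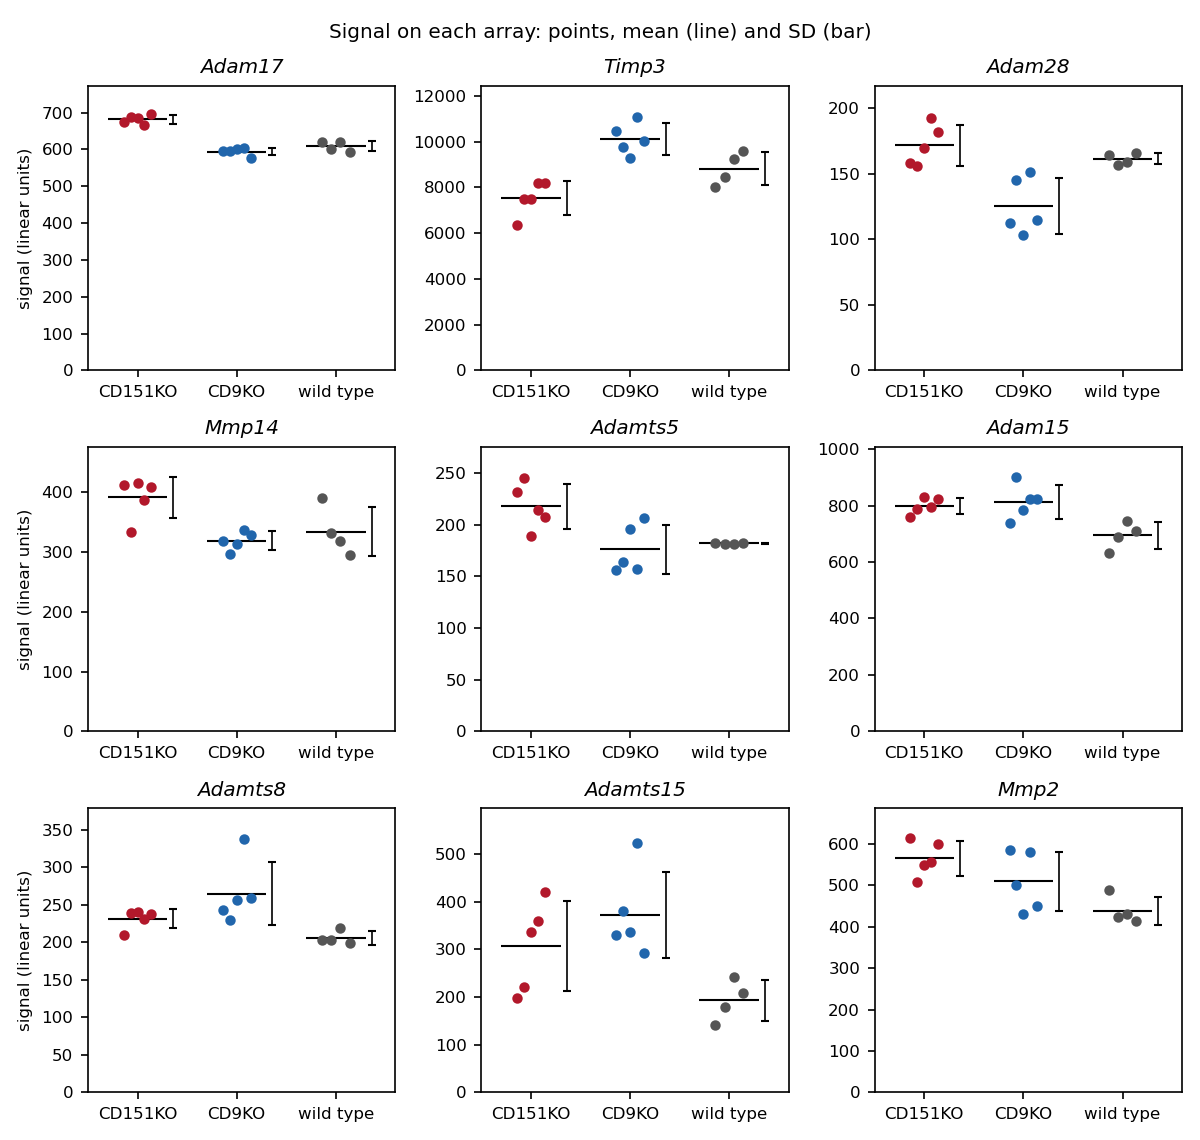
Signal (linear units, axis from 0) of 9 genes on each array of CD151KO (5), CD9KO (5) and wild type (4), with the mean as a line and the SD as a bar. Adam17 is higher on all CD151KO arrays than on all others, Timp3 is lower on all CD151KO arrays than on all CD9KO arrays, and Adamts15 and Adamts8 are higher on all CD9KO arrays than on all wild type arrays.

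Both genes had several probe sets, which share the gene's transcript and are not independent. For Timp3 the log2 differences of CD151KO from CD9KO over its 4 probe sets were -0.60, -0.43, -0.47 and -0.44, all 4 with an adjusted p under 0.05 when every probe set was tested (the lowest 0.0019 and the highest 0.0042). The 4 lay at -0.28, -0.23, -0.28 and -0.22 in CD151KO against wild type and at 0.32, 0.20, 0.19 and 0.22 in CD9KO against wild type, so their signs did not differ among probe sets. For Adam17 the 3 probe sets gave 0.27, 0.19 and 0.27 for CD151KO against CD9KO (adjusted p = 0.018, 0.0026 and 0.0054). Against wild type they gave 0.14, 0.16 and 0.054 in CD151KO, of which the second passed (adjusted p = 0.035). In CD9KO they gave -0.13, -0.034 and -0.21, of which the third passed (adjusted p = 0.026).

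**Figure D2:**
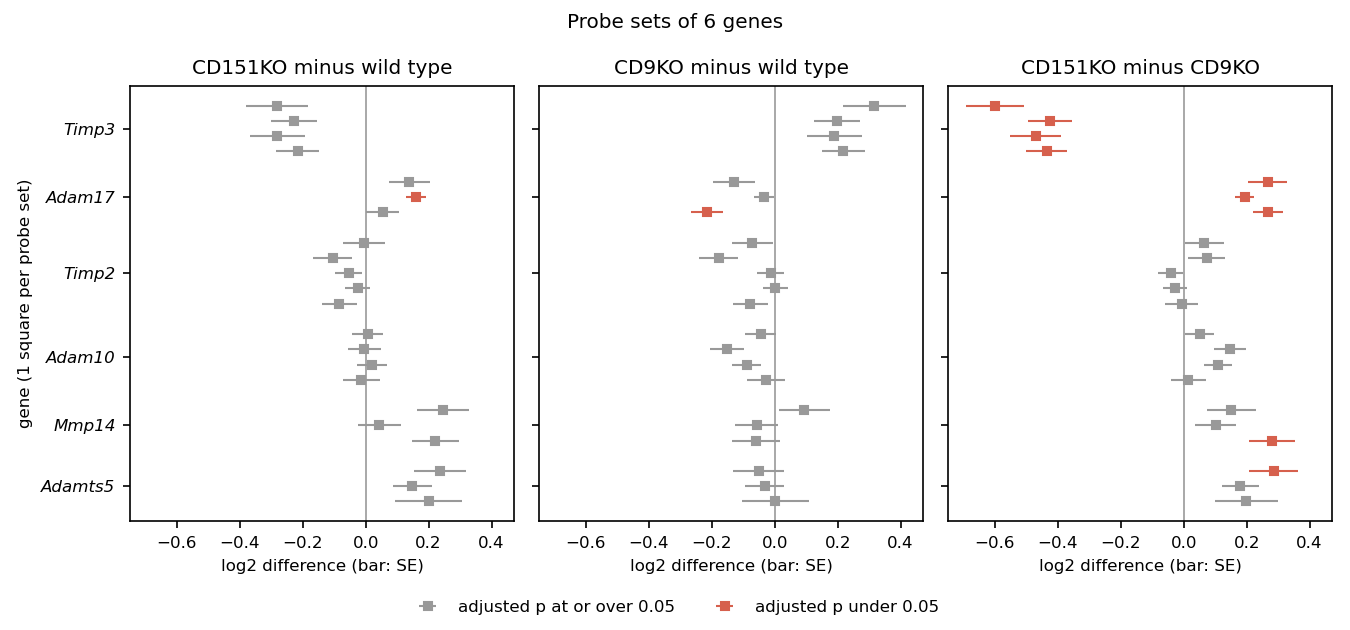
Log2 difference of each probe set above the filter for 6 genes, with its SE as a bar, in the 3 comparisons; red squares have an adjusted p under 0.05 over the 22951 probe sets tested. All 4 Timp3 and all 3 Adam17 probe sets pass between the knockouts, in opposite directions, and the 5 Timp2 and 4 Adam10 probe sets hold no red square.

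Among the other ADAMs, Adam28 was low in CD9KO lungs and Adam15 was high in them. Adam28, first described in lymphocytes, had signals of 158, 156, 169, 193 and 182 in CD151KO, 112, 145, 103, 151 and 115 in CD9KO and 164, 157, 159 and 166 in wild type. Every CD9KO array lay below every array of the other groups. It fell in CD9KO against wild type 1.27-fold (log2 -0.34, SE 0.092, adjusted p = 0.045, 5 of 5 below the mean), and it was 1.34-fold higher in CD151KO than in CD9KO (log2 0.42, adjusted p = 0.0094). The fall against wild type ended in 13 of the 26 fits. Its adjusted p was from 0.058 to 0.101 without 1 array, whether CD151KO number 3, CD9KO number 1, 3 or 5 or wild type number 1, 3, 4 or 5. It was 0.052 with arrays centred on their median, 0.056 with no filter, 0.067 with only these groups in the fit and 0.089 without both number 1 arrays. With the mean of its probe sets, of which the other is under the filter, it was 0.106 against wild type and 0.065 between the knockouts, and the log2 difference between them was 0.22. The B and plasma cell markers, 5 of 8 above the filter, summed to 42.9 to 48.3 in CD151KO, 41.5 to 43.2 in CD9KO and 40.4 to 46.2 in wild type (exact permutation p = 0.016, adjusted p = 0.071 between the knockouts). The marker lists here and below were chosen with earlier results of these data known, so their permutation p-values are descriptions only. In CD9KO against wild type the B and plasma cell sums of CD9KO lay inside the wild type range (exact permutation p = 0.317, adjusted p = 0.476). The part of the B and plasma cell markers in the low Adam28 of CD9KO was not tested.

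Adam15 codes for a disintegrin metalloprotease that binds integrins. Its signals were 759, 787, 831, 794 and 823 in CD151KO, 737, 902, 783, 821 and 822 in CD9KO and 631, 688, 745 and 712 in wild type. Both knockouts lay high, with CD151KO above every wild type array and CD9KO overlapping wild type by 1 array. It rose 1.17-fold in CD9KO (log2 0.22, SE 0.057, adjusted p = 0.038, 5 of 5 above the mean) and did not pass in CD151KO (log2 0.20, 95% interval 0.079 to 0.32, adjusted p = 0.145). Between the knockouts the log2 difference was -0.023 (95% interval -0.14 to 0.092). In CD9KO the adjusted p was from 0.050 to 0.0999 without 1 array, whether CD151KO number 4, CD9KO number 2, 3, 4 or 5 or wild type number 1 or 3. Fitting only these groups gave 0.068, and leaving out both number 1 arrays gave 0.085. Its 4 probe sets gave 0.22, 0.17, 0.22 and 0.087 in CD9KO against wild type. Over all probe sets only the third of them passed (adjusted p = 0.081, 0.126, 0.033 and 0.315).

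Adam8, Adam19 and Adam33 did not pass in any comparison. Adam8, an ADAM of leukocytes, had 313, 272, 339, 307 and 276 in CD151KO, 260.5, 278, 269, 263 and 194 in CD9KO and 269, 264, 276 and 263 in wild type. All CD151KO arrays but 1 lay above all arrays of wild type, and CD9KO number 5 lay lowest (CD151KO against CD9KO, log2 0.24, adjusted p = 0.068, and 0.050 with array weights). Adam8 lies on chromosome 7, 1.47 Mb from Cd151, and the part of this position in its values was not tested. Adam19, also called meltrin beta, had 737, 654, 653, 682 and 836 in CD151KO, 562, 689, 639.9, 594 and 658 in CD9KO and 706, 645, 607 and 552 in wild type. The 3 groups overlapped (CD151KO against wild type, log2 0.18, adjusted p = 0.437). Adam33, known from human asthma genetics, had 123, 118, 115, 103 and 93.8 in CD151KO, 94.8, 112, 104, 94.9 and 103 in CD9KO and 108, 93.99, 109.6 and 125 in wild type, and its groups overlapped too.

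Adam10 and Adam9 passed in no comparison either. Adam10, the sheddase of Notch receptors and cadherins, averaged 1876 ± 119 in CD151KO (SD, n = 5), 1809.6 ± 95.3 in CD9KO (n = 5) and 1865 ± 59.6 in wild type (n = 4). Its log2 difference was 0.0066 in CD151KO (95% interval -0.10 to 0.11) and -0.044 in CD9KO (-0.15 to 0.059) against wild type. Its 4 probe sets gave 0.0066, -0.0042, 0.020 and -0.013 in CD151KO and -0.044, -0.15, -0.089 and -0.028 in CD9KO. Adam9 averaged 2553 ± 165 in CD151KO, 2648 ± 144 in CD9KO and 2582 ± 52.2 in wild type, with log2 differences from wild type of -0.018 (-0.12 to 0.086) in CD151KO and 0.035 (-0.069 to 0.14) in CD9KO.

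Of the 7 MMPs tested, Mmp14 passed, between the knockouts. Mmp14, the membrane-bound collagenase that activates the precursor of MMP2, had signals of 412, 334, 416, 387 and 409.9 in CD151KO, 319, 296, 313, 337 and 329 in CD9KO and 391, 332, 319 and 295 in wild type. Of the 5 CD151KO arrays, 4 lay above every CD9KO array, and wild type number 1 lay among the CD151KO arrays. It rose 1.21-fold in CD151KO against CD9KO (log2 0.28, SE 0.072, adjusted p = 0.025, 5 of 5 above the mean). Against wild type it did not pass (CD151KO log2 0.22, adjusted p = 0.257, and CD9KO log2 -0.059, adjusted p = 0.655), though array weights gave 0.019 for CD151KO. The call between the knockouts had an adjusted p from 0.050 to 0.062 without 1 array, whether CD151KO number 1 or 3 or CD9KO number 2 or 3. It was 0.082 with the mean of its 3 probe sets, where the log2 difference was 0.18.

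The gelatinase gene Mmp2 had signals of 614, 507, 550.1, 556 and 599.9 in CD151KO, 586, 501, 431, 580.3 and 450.1 in CD9KO and 489, 424, 430.0 and 413 in wild type. Every CD151KO array lay above every wild type array, and CD9KO overlapped both. Its difference in CD151KO did not pass (log2 0.35, SE 0.088, adjusted p = 0.092). The second Mmp2 probe set gave 0.34 (adjusted p = 0.055 over all probe sets). Mmp2 passed under array weights (adjusted p = 0.017). Mmp2 is made mainly by mesenchymal cells, and the log2 levels of the 9 fibroblast markers summed to 98.4 to 99.5 in CD151KO, 96.1 to 99.5 in CD9KO and 97.3 to 98.2 in wild type, with CD151KO above wild type on every array (exact permutation p = 0.016, adjusted p = 0.071). That list was chosen with earlier results of these data known and holds Col3a1, which itself rose in CD151KO, so its p is a description only. In CD151KO against wild type 7 of the 9 markers were above 0 and 2 below. An unadjusted p under 0.05 was found for 4 higher and 1 lower, where 11.1% of all genes had one. Between the knockouts, where Mmp14 passed, the fibroblast sums overlapped (exact permutation p = 0.214, adjusted p = 0.386), also a description only. The part of the fibroblast markers in the values of Mmp2 and Mmp14 was not tested. Mmp3, stromelysin-1, had 426, 451, 383, 591 and 601 in CD151KO, 432, 332, 535, 449 and 425 in CD9KO and 226, 461, 396 and 334 in wild type. Wild type number 1 was the lowest of all and the groups overlapped (CD151KO log2 0.47, 95% interval 0.086 to 0.86, adjusted p = 0.320).

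Within CD151KO and within wild type, Mmp9 and Mmp11 were highest on array number 1. Mmp9, the gelatinase of neutrophils and macrophages, had 210.2, 166, 138, 114 and 95.9 in CD151KO, 101, 106, 101, 90.2 and 108 in CD9KO and 159, 102, 107 and 95.4 in wild type. Mmp11, stromelysin-3, had 311, 264, 216, 198 and 199 in CD151KO, 194, 187, 191, 168 and 193 in CD9KO and 249, 203, 186 and 195 in wild type. For both genes array number 1 was the highest of CD151KO and the highest of wild type, and CD151KO number 2 lay above wild type number 1. Mmp11 was higher on every CD151KO array than on every CD9KO array without passing (log2 0.31, adjusted p = 0.082), and Mmp9 overlapped (log2 0.42, adjusted p = 0.108). Without both number 1 arrays the log2 difference of CD151KO from CD9KO was 0.21 for Mmp11 and 0.28 for Mmp9. Mmp9 passed there without CD151KO number 5 (log2 0.53, adjusted p = 0.036).

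Neutrophils carry Mmp8, Mmp9 and Adam8. Of 10 neutrophil markers 5 lay above the filter, with Ngp, Camp, Mpo and Elane among those under it, and the summed log2 level of the 5 ran over 44.2 to 49.02 in CD151KO, 40.8 to 42.9 in CD9KO and 42.3 to 46.1 in wild type. All CD151KO arrays lay above all CD9KO arrays (exact two-sided permutation p = 0.0079, adjusted p = 0.071 over 27 tests of marker lists). Between the knockouts 4 of the 5 markers were higher in CD151KO, where 5.99% of all genes were. Among them was S100a8, at 1545 to 5362 in CD151KO against 703 to 1010.0 in CD9KO. Ltf, named after its values were seen, did not pass (log2 0.13, adjusted p = 0.825). None of the 5 passed in either knockout against wild type. The part of the neutrophil markers in the values of Mmp9, Mmp8 and Adam8 was not tested.

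Mmp19 and the macrophage elastase gene Mmp12 did not pass in any comparison. Mmp19 had 67.5, 84.3, 70.5, 87.5 and 108 in CD151KO, 94.3, 83.6, 106, 113 and 107 in CD9KO and 67.6, 98.6, 76.8 and 83.4 in wild type, and its groups overlapped (CD9KO log2 0.26, adjusted p = 0.170). Mmp12 averaged 79.4 ± 8.22 in CD151KO, 77.99 ± 6.69 in CD9KO and 82.7 ± 9.54 in wild type (SD, n = 5, 5 and 4), with a log2 difference of -0.048 (-0.21 to 0.12) in CD151KO and -0.068 (-0.23 to 0.10) in CD9KO against wild type.

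Of the ADAMTS genes, the neighbours Adamts15 and Adamts8 rose in CD9KO, and Adamts5 was higher in CD151KO than in CD9KO. Adamts15, an enzyme that cuts versican, had 198, 221, 336, 359 and 421 in CD151KO, 329, 381, 336, 523 and 291 in CD9KO and 141, 179, 242 and 209 in wild type. CD9KO lay wholly above wild type, and CD151KO ran from the wild type range up into that of CD9KO. The rise in CD9KO was 1.85-fold (log2 0.89, SE 0.21, adjusted p = 0.029, 5 of 5 above the mean), the largest difference among the 25 genes tested in the 3 comparisons. In CD151KO the log2 difference was 0.60 (95% interval 0.15 to 1.05, adjusted p = 0.270). In CD9KO the adjusted p was from 0.050 to 0.084 without 1 array, whether CD9KO number 3 or 4 or wild type number 1 or 3.

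Adamts8, a neighbour of Adamts15 on chromosome 9, had 209, 239, 240.3, 231 and 238 in CD151KO, 242, 229.6, 256, 337 and 259 in CD9KO and 202, 203, 219 and 199 in wild type. CD9KO again lay wholly above wild type, with number 4 far above the other CD9KO arrays. The rise was 1.26-fold (log2 0.33, SE 0.083, adjusted p = 0.037, 5 of 5 above the mean), and its adjusted p was from 0.060 to 0.088 without 1 array, whether CD9KO number 3 or 5 or wild type number 1, 3 or 5. It was 0.067 without both number 1 arrays and 0.065 with only these groups in the fit. In the same stretch of chromosome 9, 7 other genes were tested, and none passed in CD9KO by limma. The closest of them to Adamts8, Zbtb44 and St14, had log2 differences of 0.24 (adjusted p = 0.123) for Zbtb44 and 0.13 (adjusted p = 0.083) for St14, and 3 of the 7 (these and Snx19) had an unadjusted p under 0.05, against 25.4% of all genes. St14 passed in CD151KO against wild type (log2 0.22, adjusted p = 0.026).

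Muscle markers differed from wild type as well, those of smooth muscle in both knockouts. The 6 smooth muscle markers summed to 58.2 to 59.3 in CD151KO, 58.6 to 60.5 in CD9KO and 56.96 to 57.8 in wild type. Both knockouts lay above wild type on every array (exact permutation p = 0.016, adjusted p = 0.071 for each). The 0.016 is the smallest two-sided p that 5 against 4 arrays allow. In CD9KO 4 of the 6 rose (Actg2, Cnn1, Myh11 and Tagln), where 2.88% of all genes rose. In CD151KO 1 of the 6 rose, where 0.454% of all genes did. The 7 cardiac muscle markers summed to 67.95 to 73.70 in CD151KO, 70.40 to 74.92 in CD9KO and 68.52 to 70.38 in wild type. CD9KO lay above wild type on every array (exact permutation p = 0.016, adjusted p = 0.071), and 1 of the 7 passed there. The part of muscle markers in the rises of Adamts8 and Adamts15 was not tested.

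Adamts5, an aggrecanase, had 232, 246, 189.6, 214 and 207 in CD151KO, 156, 164, 196, 157 and 207 in CD9KO and 183, 182, 181 and 182 in wild type. The 4 wild type arrays lay close together, below every CD151KO array and inside the range of CD9KO. It rose 1.22-fold in CD151KO against CD9KO (log2 0.29, SE 0.078, adjusted p = 0.032, 5 of 5 above the mean) and did not pass against wild type (log2 0.24, adjusted p = 0.270). Between the knockouts its adjusted p was from 0.061 to 0.079 without 1 array, whether CD151KO number 1 or 2 or CD9KO number 1, 2 or 4. It was 0.066 without both number 1 arrays, 0.054 with only these groups in the fit and 0.068 with the mean of its probe sets, where the log2 difference was 0.17. Its 3 probe sets above the filter gave 0.29, 0.18 and 0.20.

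Adamts1, which neighbours Adamts5 on chromosome 16 and cuts versican and aggrecan, did not pass. Its signals were 1636, 1325, 1079, 987 and 1088 in CD151KO, 1086, 1023, 903, 786 and 1095 in CD9KO and 1724, 1411, 1231 and 1042 in wild type (CD9KO log2 -0.45, 95% interval -0.78 to -0.12, adjusted p = 0.089). Without wild type number 5 it passed in CD9KO (log2 -0.56, adjusted p = 0.050). Array number 1 was the highest of CD151KO and of wild type. Adamts9 varied widely within groups, at 578 ± 187 in CD151KO, 576 ± 109 in CD9KO and 532 ± 179.6 in wild type (SD, n = 5, 5 and 4), and its 3 probe sets differed in sign (CD9KO against wild type, -0.12, -0.35 and 0.16). Adamts10, which binds the fibrillin of microfibrils, had 536, 542, 512, 485 and 476 in CD151KO, 519, 568, 504, 493 and 543 in CD9KO and 545, 451, 469 and 511 in wild type, with overlapping groups (CD9KO log2 0.088, adjusted p = 0.373).

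The inhibitors other than Timp3 did not pass in any comparison by limma, and none had an unadjusted p under 0.05 at its brightest probe set. Timp2, a secreted inhibitor that also takes part in the activation of MMP2, averaged 4886 ± 221 in CD151KO, 4978 ± 203 in CD9KO and 4970.0 ± 180.1 in wild type (SD, n = 5, 5 and 4). Its log2 difference was -0.025 (-0.11 to 0.060) in CD151KO and 0.0021 (-0.083 to 0.087) in CD9KO. Its 5 probe sets gave -0.071, -0.18, -0.013, 0.0021 and -0.078 in CD9KO against wild type, the second of them with an unadjusted p of 0.012 (adjusted p = 0.088), and -0.0055, -0.11, -0.054, -0.025 and -0.084 in CD151KO. Timp1 averaged 224 ± 21.97 in CD151KO, 222 ± 38.9 in CD9KO and 209.9 ± 25.6 in wild type. Timp4, best known from heart, averaged 59.96 ± 1.89 in CD151KO, 63.4 ± 8.45 in CD9KO and 64.01 ± 4.95 in wild type. The log2 differences of Timp1 were 0.091 (-0.14 to 0.32) in CD151KO and 0.064 (-0.17 to 0.30) in CD9KO, and those of Timp4 -0.073 (-0.22 to 0.072) in CD151KO and -0.015 (-0.16 to 0.13) in CD9KO.

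**Figure D3:**
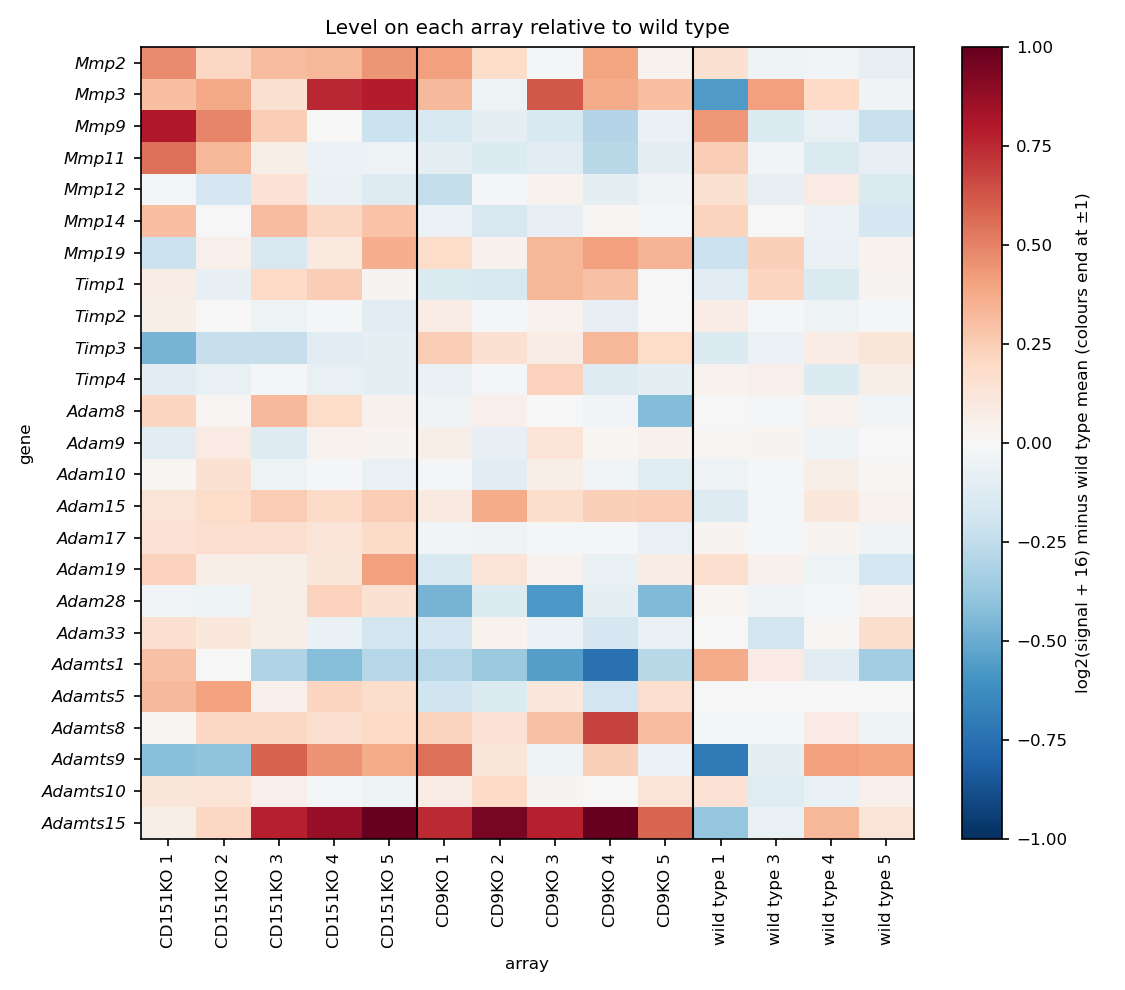
Level of the 25 genes tested on each of the 14 arrays, as log2(signal + 16) minus the wild type mean of the gene, with CD151KO, CD9KO and wild type from left to right. The Timp3 row is blue across CD151KO and red across CD9KO, the Adamts15 row is red across both knockouts, and Mmp9 and Mmp11 are red on array number 1 of CD151KO and of wild type.

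Over the family, 1 of 25 genes passed in CD151KO against wild type (Adam17, higher), where 0.778% of all genes tested passed, 0.454% higher and 0.323% lower. In CD9KO against wild type 3 rose (Adam15, Adamts8 and Adamts15) and 1 fell (Adam28), 4 of 25, where 5.51% of all genes passed, 2.88% higher and 2.63% lower. Between the knockouts 4 were higher in CD151KO (Mmp14, Adam17, Adam28 and Adamts5) and 1 was lower (Timp3), 5 of 25, where 10.1% of all genes passed, 5.99% higher and 4.12% lower. At an unadjusted p under 0.05 the counts were 9 of 25 in CD151KO against wild type (11.1% of all genes), 8 in CD9KO against wild type (25.4%) and 11 between the knockouts (27.6%). In CD151KO against wild type 19 of the 25 differences were above 0, and their median was 0.12, against 0.0079 for all genes tested, of which 54.03% were above 0. In CD9KO against wild type 13 of 25 were above 0 with a median of 0.0021 (all genes 0.0037), and between the knockouts 15 of 25 with a median of 0.051 (all genes 0.0016). The median in CD151KO was 0.064 without CD151KO number 4 and 0.080 without CD151KO number 3. These medians describe the list and are not tests of it.

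By class, the 7 MMPs tested had a median log2 difference of 0.22 in CD151KO and -0.059 in CD9KO against wild type, the 8 ADAMs 0.12 in CD151KO and -0.039 in CD9KO. The 6 ADAMTS genes had medians of 0.14 in CD151KO and 0.12 in CD9KO, and the 4 TIMPs -0.049 in CD151KO and 0.033 in CD9KO. Groups did not overlap for 4 of 25 genes in CD151KO against wild type, all higher in CD151KO (Mmp2, Adam15, Adam17 and Adamts5), against 4.54% of all genes, 2.84% higher and 1.69% lower. In CD9KO against wild type they did not overlap for 3 (Adamts8 and Adamts15 higher, Adam28 lower), against 11.8% of all genes, 6.64% higher and 5.19% lower. Between the knockouts they did not overlap for 4 (Mmp11, Adam17 and Adam28 higher in CD151KO, Timp3 lower), against 10.6% of all genes, 6.55% higher and 4.06% lower.

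**Figure D4:**
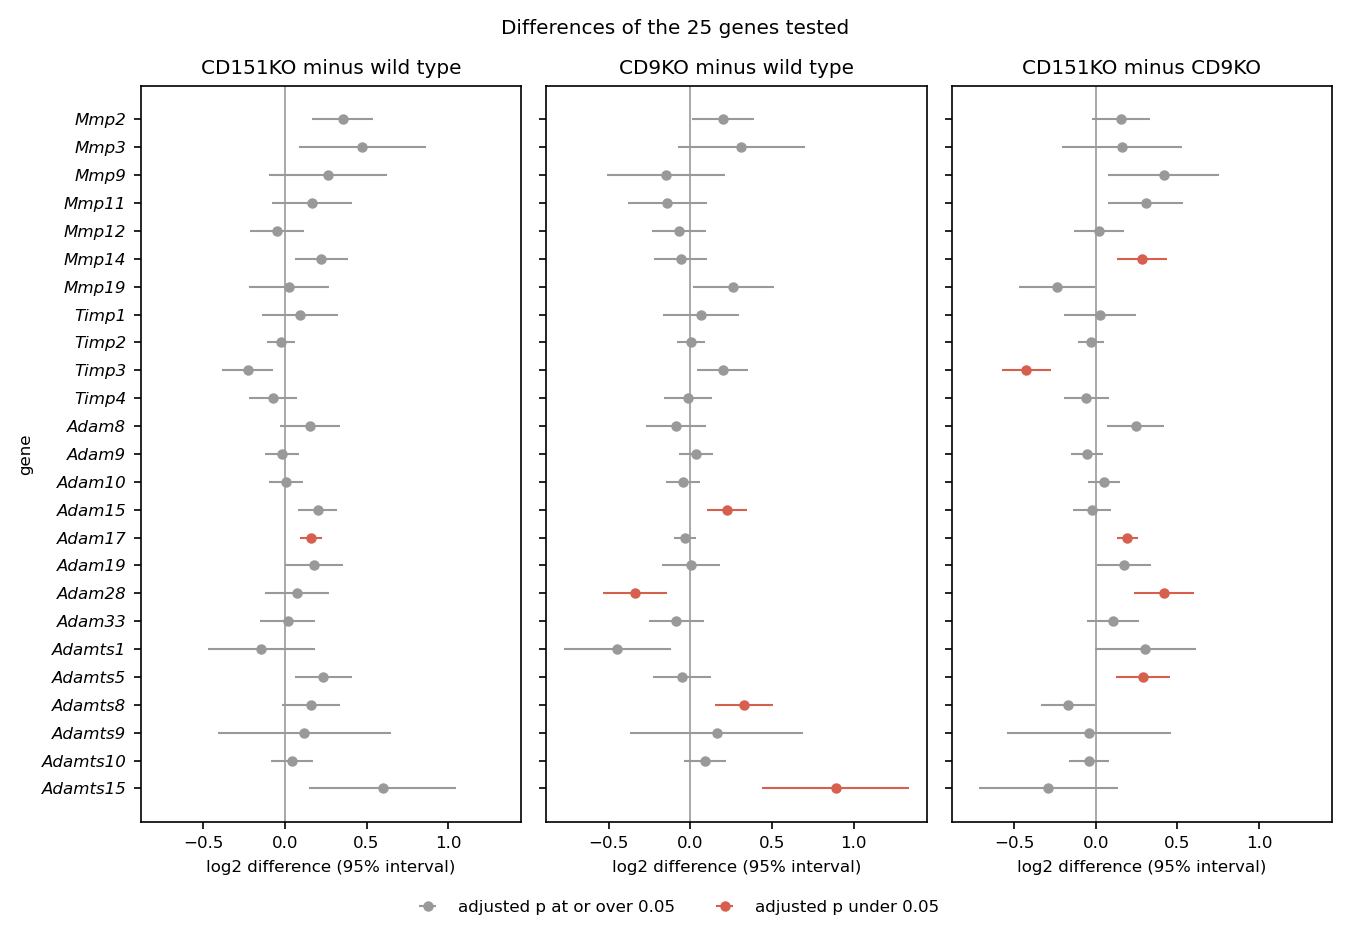
Log2 difference on the log2(signal + 16) scale with its 95% interval for each of the 25 genes tested, in CD151KO against wild type, CD9KO against wild type and CD151KO against CD9KO. Red points have an adjusted p under 0.05: Adam17 in the first panel, Adam15, Adam28, Adamts8 and Adamts15 in the second, and Mmp14, Timp3, Adam17, Adam28 and Adamts5 in the third.

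Of the 68 probe sets of the family, 52 lay above the filter. Of the 14 genes with more than 1 such probe set, all probe sets shared a sign for 11 in CD151KO against wild type, for 9 in CD9KO against wild type and for 10 between the knockouts. Tested over all 22951 probe sets, 1 of 52 passed in CD151KO against wild type (0.627% of all), 5 in CD9KO against wild type (6.78% of all) and 10 between the knockouts (7.7% of all). Probe sets of 1 gene share its transcript and are not independent.

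The other 7 genes lay under the filter, the 40th percentile of mean log2 signal (a signal of 53.4), and their values are descriptions only. Mmp8, the neutrophil collagenase, had 70.7, 79.00, 47.6, 51.1 and 60.7 in CD151KO, 41.5, 53.1, 40.98, 55.98 and 60.8 in CD9KO and 48.3, 52.2, 34.9 and 39.2 in wild type. Mmp13, an interstitial collagenase, had 11.8, 7.96, 11.9, 12.3 and 10.4 in CD151KO, 12.7, 19.8, 14.5, 16.8 and 18.6 in CD9KO and 10.5, 10.03, 12.1 and 9.80 in wild type, so that CD9KO lay above the other groups at a very low signal. With no filter Mmp13 passed in CD9KO against wild type (log2 difference 0.28, adjusted p = 0.026) and in CD151KO against CD9KO (log2 difference -0.27, adjusted p = 0.013). Adamts12 averaged 44.8 ± 3.04 in CD151KO, 37.5 ± 1.64 in CD9KO and 41.5 ± 1.29 in wild type, and with no filter it passed between the knockouts (log2 difference 0.18, adjusted p = 0.015). Adam12, also called meltrin alpha, averaged 47.7 ± 6.06 in CD151KO, 47.2 ± 1.89 in CD9KO and 49.1 ± 3.62 in wild type. Adam23, which lacks a working protease site, averaged 49.02 ± 3.31 in CD151KO, 43.5 ± 2.94 in CD9KO and 47.7 ± 2.38 in wild type. The aggrecanase gene Adamts4 averaged 17.9 ± 2.32 in CD151KO, 16.4 ± 1.59 in CD9KO and 15.3 ± 1.56 in wild type, and Adamts7 averaged 28.3 ± 4.24 in CD151KO, 26.9 ± 1.53 in CD9KO and 29.99 ± 2.49 in wild type (SD, n = 5, 5 and 4 throughout).

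Genes that carry, activate or restrain these enzymes were listed too, and their counts stand beside the shares over all genes. In CD151KO against wild type 0.778% of all genes passed and 11.1% had an unadjusted p under 0.05, in CD9KO against wild type 5.51% and 25.4%, and between the knockouts 10.1% and 27.6%. Of 12 partners of ADAM10 and ADAM17 (the TspanC8 tetraspanins, the iRhoms and sorting proteins), 11 were tested. In CD9KO against wild type 1 rose and 1 fell. Tspan15, a TspanC8 tetraspanin that binds ADAM10, fell 1.23-fold, to 594 ± 26.3 in CD9KO (SD, n = 5) against 735 ± 79.5 in wild type (n = 4, adjusted p = 0.045), and it measured 735 ± 84.6 in CD151KO. Pacs2, a sorting protein that acts on ADAM17 traffic, rose 1.11-fold in CD9KO (adjusted p = 0.028). None of the 11 passed in CD151KO against wild type by limma, and none had an unadjusted p under 0.05 there. Between the knockouts Tspan15 was higher in CD151KO (log2 0.30, adjusted p = 0.025) and Pacs2 lower (log2 -0.12, adjusted p = 0.045). The list's median log2 difference was 0.039 in CD151KO against wild type, 0.0048 in CD9KO against wild type and -0.0029 between the knockouts.

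Of 19 activators and other restraints, 12 were tested. Reck, a membrane-anchored inhibitor of MMPs, was lower in CD151KO than in CD9KO, at 1155 ± 53.6 in CD151KO against 1393 ± 93.4 in CD9KO (SD, n = 5 each, log2 -0.27, adjusted p = 0.0059), with 1307 ± 70.98 in wild type. Timp3 was lower in CD151KO than in CD9KO too. Plat, tissue plasminogen activator, rose 1.68-fold in CD9KO against wild type (adjusted p = 0.043) and Cd44, which holds MMPs at the cell surface, fell 1.12-fold (adjusted p = 0.040). Between the knockouts Cd44 and the proprotein convertase gene Pcsk5 were higher in CD151KO (Cd44 log2 0.22, adjusted p = 0.0058, and Pcsk5 log2 0.21, adjusted p = 0.032). In CD151KO against wild type none of the 12 passed by limma, and 2 had an unadjusted p under 0.05. Over the 12 the median log2 difference was 0.067 in CD151KO and 0.050 in CD9KO against wild type.

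Among the substrates, 24 of 30 shed membrane proteins were tested. In CD9KO against wild type 1 rose (Notch2, log2 0.15, adjusted p = 0.039), and between the knockouts 4 of 24 were higher in CD151KO, where 5.99% of all genes were: Sdc4 (syndecan-4, log2 0.13, adjusted p = 0.048, named after its values were seen), Sdc1 (syndecan-1, log2 0.20, adjusted p = 0.0093), Cxcl16 (log2 0.18, adjusted p = 0.0094) and Met (log2 0.19, adjusted p = 0.019). In CD151KO against wild type none of the 24 passed by limma, and 6 had an unadjusted p under 0.05. Their median log2 difference was 0.039 in CD151KO and -0.016 in CD9KO against wild type.

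Of 22 matrix substrates 19 were tested, and in CD151KO against wild type 2 rose, Col3a1 (collagen III, log2 0.56, adjusted p = 0.030) and Eln (elastin, log2 0.56, adjusted p = 0.030). Eln also rose in CD9KO (log2 0.66, adjusted p = 0.011), with Lamc1 and Nid1 (log2 0.17 and 0.26, both named after their values were seen), while Col3a1 had a log2 difference of -0.092 there. Between the knockouts 2 were higher in CD151KO, Col3a1 (log2 0.65, adjusted p = 0.0027) and Col1a2 (log2 0.27, adjusted p = 0.036, named after its values were seen). There 1 was lower, Fn1 (fibronectin, log2 -0.27, adjusted p = 0.013). The median over the 19 was 0.13 in CD151KO and 0.12 in CD9KO against wild type, and 0.060 between the knockouts. Col3a1 and Col1a2 are also on the list of fibroblast markers. Of those 9 markers 2 were higher in CD151KO than in CD9KO and 1 was lower, where 5.99% and 4.12% of all genes were. Of 49 further genes of the MMP, ADAM and ADAMTS families 13 were tested, and between the knockouts 2 were higher in CD151KO, Mmp23 (log2 0.27, adjusted p = 0.035) and Adamdec1 (log2 0.52, adjusted p = 0.031), and 1 was lower, Adamtsl5 (log2 -0.22, adjusted p = 0.047). None of the 13 passed against wild type by limma, where 5 in CD151KO and 3 in CD9KO had an unadjusted p under 0.05, and their median log2 difference was 0.017 in CD151KO and -0.0060 in CD9KO.

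Other marker lists were summed in the same way. Macrophage markers, 9 of 10 above the filter, had log2 levels summing to 83.3 to 87.9 in CD151KO, 83.5 to 86.3 in CD9KO and 84.4 to 86.1 in wild type. Of 6 adipocyte markers 3 lay above the filter, with sums of 25.4 to 27.5 in CD151KO, 25.7 to 27.9 in CD9KO and 25.03 to 26.1 in wild type. Of 8 cartilage markers 1 did, with Col2a1 and Acan under it.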

How the data were processed

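RNA of whole lungs was hybridised to Affymetrix 1-colour arrays, 1 array a sample, with 5 CD151KO, 5 CD9KO and 4 wild type samples grouped by the genotype the labels give. The deposited table holds a linear intensity per probe set, 4.78 to 29667, with array medians between 84.1 and 86.2. Per the submitters' processing notes the tools were Affymetrix Expression Console and MAS5. Which of them made these values, and how, is not stated there. No further normalization was applied to the deposited intensity.

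Of 45101 probe sets, 34945 carry exactly 1 gene symbol in the platform annotation, 932 several, and 9224 none or are controls. The main scale was log2 of the deposited intensity plus 16. For a gene with several probe sets the brightest on average was used, genes under the 40th percentile were left out, and 12985 genes were fitted over all 14 arrays in limma 3.58.1 (R 4.3.3) with lmFit and eBayes with a trend. P-values were adjusted by Benjamini-Hochberg over all genes. The steps were tested on simulated data. Alternatives were the pseudocount (1 or 64), quantile normalization or median centring, the filter (none or the 60th percentile), the mean of a gene's probe sets or every probe set, only the compared groups, no trend, array weights, a replicate block, a 1.5-fold minimum, and leaving out each array or both number 1 arrays. Marker lists were compared by an exact two-sided permutation test of their summed log2 levels, adjusted over 27 tests. Those p-values are descriptions, since the lists were chosen with earlier results of these data known. Promoter sequences, names and chromosomes are from RefSeq (GRCm38.p6).

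Values on every array are given for genes that passed in any comparison and for the next 10 by unadjusted p. Up to 4 genes are named from each related list, besides those marked as named after their values were seen. The members and lists were chosen with earlier results of these data known. Figures were drawn with matplotlib in Python.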

Additional observations from a re-analysis of the deposited data

Results flagged for a closer look

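Each group's highest and lowest array was compared with its neighbours for the 25 genes tested, 75 groups in all, and 4 groups held an array far from the others. Chance alone marks about 1 in 20 groups. Mmp11 was 168 on CD9KO number 4, below the 187 to 194 of the other CD9KO arrays. Adamts8 was 337 on the same array, above the 229.6 to 259 of the others. Without it the log2 difference of Adamts8 between CD9KO and wild type was 0.24 (limma, adjusted p = 0.041). Adam8 was 194 on CD9KO number 5, below the 260.5 to 278 of the others, and without it the log2 difference of CD151KO from CD9KO was 0.16 (limma, adjusted p = 0.115). Timp4 was 56.6 on wild type number 4, below the 65.8 to 67.03 of the other wild type arrays. The causes were not tested.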

How the results depend on the processing

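The fall of Timp3 and the rise of Adam17 in CD151KO against CD9KO passed in the 26 alternatives with 1 value a gene and no minimum fold, and in every probe set, and both ended under a 1.5-fold minimum. No called gene of the family changed direction in the 26. Of 1935 gene results under alternatives, 62 of genes that had not passed changed sign. Genes of the family that rose in CD151KO against wild type numbered 1, against 0 with the mean of probe sets, only the compared groups, a 1.5-fold minimum or without both number 1 arrays, and 3 with array weights. In CD9KO against wild type the 3 that rose became 1 with only the compared groups, a 1.5-fold minimum or without both number 1 arrays. The 1 that fell became 0 in these same fits and with median centring, no filter or the mean of probe sets, and 2 probe sets with every probe set tested (Adam28 and 1 of Adam17). Between the knockouts the 4 higher became 1 with the mean of probe sets and 0 with a 1.5-fold minimum, and the 1 lower became 2 with no filter, 4 probe sets, all of Timp3, with every probe set tested and 0 with a 1.5-fold minimum. Over all genes, the 101 calls of CD151KO against wild type became 39 with only the compared groups, 335 with array weights, 14 with a 1.5-fold minimum and 45 without both number 1 arrays. The 715 of CD9KO against wild type became 1555 with every probe set, 1090 with array weights, 26 with a 1.5-fold minimum and 405 without both number 1 arrays, and the 1313 between the knockouts became 64 with a 1.5-fold minimum. The causes were not tested. By construction a 1.5-fold minimum can only remove calls, and every probe set makes more tests. With every probe set the share passing went from 5.51% to 6.78% in CD9KO against wild type. It went from 0.778% to 0.627% in CD151KO against wild type and from 10.1% to 7.7% between the knockouts.

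Leaving out each array in turn gave 24 to 98 genes over all in CD151KO against wild type, 158 to 866 in CD9KO against wild type and 682 to 1939 between the knockouts. The lowest count was without wild type number 4 in CD151KO against wild type, without wild type number 3 in CD9KO against wild type and without CD9KO number 5 between the knockouts. In the family it gave 0 to 1 higher and 0 lower in CD151KO against wild type (median 0.064 to 0.15), 0 to 3 higher and 0 to 1 lower in CD9KO against wild type (median -0.016 to 0.016), and 2 to 5 higher and 1 lower between the knockouts (median 0.031 to 0.094). With the replicate number as a block, 109 genes passed in CD151KO against wild type, 1591 in CD9KO against wild type and 1821 between the knockouts. Under this block genes of the family passed that had not in the main fit: Mmp2 in CD151KO against wild type (adjusted p = 0.039), Timp3 higher (0.036) and Adamts1 lower (0.015) in CD9KO against wild type, and Adam8 (0.040), Mmp9 (0.037) and Mmp11 (0.018) higher in CD151KO than in CD9KO. So 2 fell in CD9KO and 7 were higher in CD151KO than in CD9KO, and Adam17 had an adjusted p of 0.082 in CD151KO against wild type. Deviations of same-numbered arrays from their group means correlated over 0.1 in 6 of 13 pairs (-0.13 to 0.59). Not every pair did, and the labels do not say what a number marks, so the arrays were not treated as paired. Of the 14 arrays, 6 correlated best with an array of their own number, a hint from the data and not from the design. The number of arrays limits the precision, and genes under the filter were too dim to be ranked.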
